A study of Mus musculus with 12 samples.

Results

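The genes described here make, carry or use acetyl-CoA or the citrate it is made from, and were chosen by name: Acly, Acss1, Acss2, Acss3, Slc25a1, Slc13a5, Acat1, Acat2, Slc33a1 and Aco1. All 10 were found by their symbols among the 17922 genes of a table of RNA levels in mouse rib chondrocytes, the cells of rib cartilage. Cartilage was digested with collagenase and the cells were kept in culture until at least the next day before RNA was taken. The 12 samples form 4 groups of 3. The LDH knockout came from mice at postnatal day 5 with Col2-Cre, Ldha(fl/fl) and Ldhb+/-, and the Acly knockout from embryos at E18.5 with Col2-Cre and Acly(fl/fl). Each knockout had a littermate control of the same age, and the alleles and Cre status of the controls are not given in the sources used here. All 4 groups have a mixed strain background in which C57BL/6 dominates. Col2-Cre is a recombinase driven by the collagen II gene in cartilage cells, so other cells of the digested tissue can keep the floxed gene. The study asked what follows in skeletal development when glycolysis or cytosolic acetyl-CoA is reduced. No label says which samples are separate animals or cultures, so the p-values below measure only the spread between these samples, which may be technical.

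Acetyl-CoA does not cross the inner mitochondrial membrane. Citrate made in mitochondria leaves through the citrate carrier Slc25a1 and is split in the cytosol by ATP citrate lyase, Acly, into acetyl-CoA and oxaloacetate; acetyl-CoA synthetase 2, Acss2, makes the same product from acetate. Cytosolic and nuclear acetyl-CoA feeds fatty acid and sterol synthesis and the acetylation of histones and other proteins. Lactate dehydrogenase, whose A subunit is encoded by Ldha and B subunit by Ldhb, interconverts pyruvate and lactate. Mitochondrial acetyl-CoA is also made from pyruvate.

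Total counts ran from 26362407 to 28154143 per sample, and 3 counts correspond to 0.107 to 0.114 CPM, the count relative to the sample's total. Of 9 chondrocyte markers, all were detected in each sample apart from Matn1, a cartilage matrix protein, which was at 0 in LDH control replicate 2. Matn1 was scarce in the whole LDH set, at 0 to 0.158 CPM in controls and 0.116 to 0.275 in knockouts. It averaged 1.57 CPM in the Acly control and 3.06 in the Acly knockout. Summed chondrocyte markers were at 19831 to 29801 CPM in the LDH knockout against 10876 to 12619 in its control, and at 14259 to 16377 in the Acly knockout against 8592 to 9378. Col2a1, the collagen II gene, carried most of both differences, at 19533 against 9636 CPM in the LDH set and 11192 against 5476 CPM in the Acly set. Of the 9 markers, 2 were called higher in the Acly comparison, against 0.0573% of all tested genes. Another count, above control without overlap, gave 3, against 9.73% of all tested genes, and Hapln1 was at 344 against 366 CPM. In the LDH comparison 8 chondrocyte markers were tested. Of these, 5 were called higher, against 1.43% of all tested genes, and all 8 lay above control without overlap, against 12.2%. Of 7 fat cell markers, 6 were tested and 5 were called higher in the LDH knockout, against 1.43% of all tested genes. All 6 lay above control without overlap, against 12.2%. The 7 summed to 23.0 to 61.9 CPM in the LDH knockout against 7.89 to 8.24 in its control, and Lep was at 0 in 7 of the 12 samples. Osteoblast markers summed to 48.3 to 64.7 CPM in the LDH knockout against 87.3 to 105 in its control. Of 5 tested, 1 was called lower, against 1.07% of all tested genes, and 2 lay below without overlap, against 12.1%. Fibroblast and perichondrium markers summed to 184 to 235 against 242 to 418. None of 6 was called, where 1.07% of all tested genes were called lower, and 2 lay below without overlap, against 12.1%. Alpl (5.63 against 5.40 CPM) and Dpt (1.18 against 0.829 CPM), 1 from each list, were higher on average in the LDH knockout. In bulk RNA, fewer cells of a type and less RNA per cell cannot be told apart. Acly knockout replicate 2 stood apart in fibroblast and perichondrium markers, with a sum of 871 CPM against 2480 and 2568 in the other knockout samples and 2666 to 3119 in the Acly controls. Of 6 such markers and of 6 skeletal muscle markers, 3 each lay below control without overlap in the Acly comparison, against 12.4% of all tested genes, and none was called. Macrophage markers summed to 133 to 152 CPM in the Acly knockout against 112 to 127 in its control. Of 6, 2 lay above without overlap, against 9.73%, and none was called. Osteoblast markers there summed to 148 to 178 against 188 to 207, with no single marker below without overlap and none called. Y-linked genes summed to 0, 0 and 0.0388 CPM in LDH knockout replicates 1 to 3 and to 97.6, 106 and 0.632 in the LDH controls. They summed to 0.0707, 72.8 and 78.8 in the Acly knockouts and to 0.355, 111 and 2.66 in the Acly controls. The groups of both sets thus differed in how many samples had high Y-linked counts, most in the LDH set.

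Acly was the most abundant of the 10 transcripts in 3 of the 4 groups and dropped out of first place in the Acly knockout. On the TPM scale (a transcript's share of all transcripts, which allows for length and so permits comparison between genes), the LDH control had a mean of 92.0 for Acly and 51.9 for Slc25a1. Slc33a1 followed at 31.9, Aco1 at 25.7, Acat1 at 12.5 and Acat2 at 8.5. The acetyl-CoA synthetases lay far below: Acss2 was at 1.59 TPM, Acss1 at 0.773 and Acss3 at 0, with the plasma membrane citrate carrier Slc13a5 at 0.460. All neighbours in this order were apart in all samples of that group. In the LDH knockout the order was the same, with Acly at 80.2 TPM, and the values of Slc33a1 and Aco1 overlapped, as did those of Acss1 and Slc13a5.

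The Acly control had Acly at 85.8 TPM, Slc25a1 at 58.1, Acat1 at 31.9, Aco1 at 29.1 and Slc33a1 at 28.2, and of neighbours in this order only Aco1 and Slc33a1 overlapped; Slc33a1 also reached into the range of Acat1. In the Acly knockout, Slc25a1 led at 62.9 TPM, and Acat1 at 33.1, Acly at 30.7 and Aco1 at 27.6 followed with overlapping neighbours. The 10 transcripts together came to 225 ± 14.2 TPM in the LDH control, 206 ± 6.83 in the LDH knockout, 248 ± 9.19 in the Acly control and 189 ± 21.9 in the Acly knockout (SD, n = 3 each). Acly made up 40.7%, 38.9%, 34.6% and 16% of these sums in the same order.

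**Figure D1:**
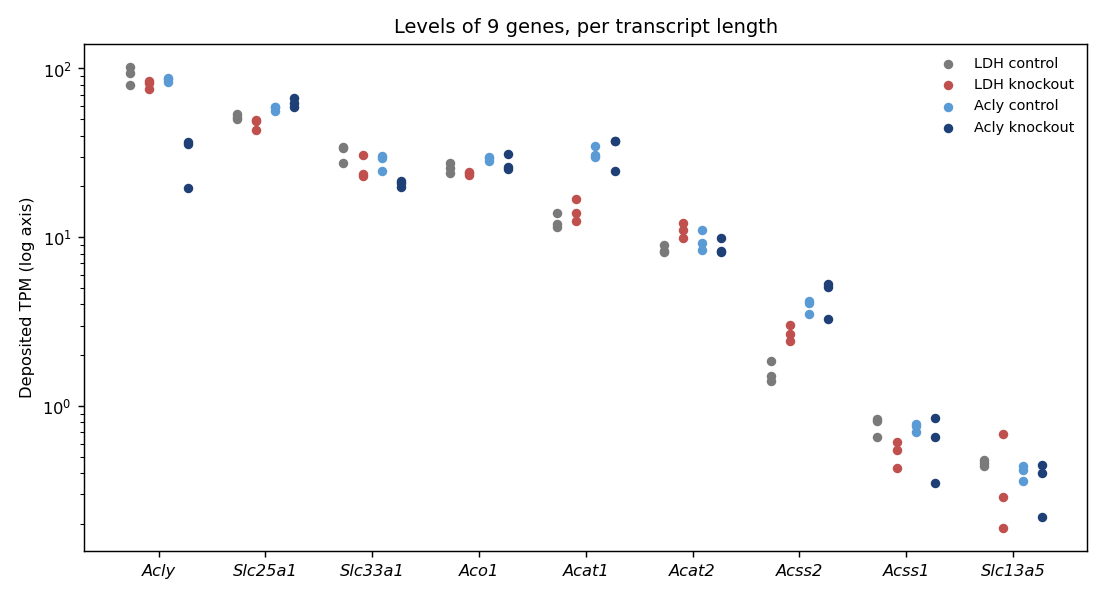
Deposited TPM of 9 genes (Acss3, at or near 0, is not drawn) in the 4 groups of 3 samples, on a log axis, with a point for each sample and genes in the order of the LDH control. Acly leads in 3 groups, at 80.2 to 92.0 TPM on average, and lies at 30.7 TPM in the Acly knockout, below Slc25a1 at 62.9.

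Acly, the enzyme that makes cytosolic acetyl-CoA from citrate, is the deleted gene of one knockout and so checks the labels of that set. The Acly control samples had 188, 182 and 191 CPM, and the Acly knockout samples had 78.9, 48.3 and 82.4 CPM (TMM-scaled, which permits comparison between samples). Every knockout sample was below every control sample, and replicate 2 was the lowest. The knockout retained 37.4% ± 10.0 of the control mean (SD, n = 3), with 42.2%, 25.8% and 44.0% in replicates 1 to 3. The log2 fold change was -1.41 (SE 0.17, 95% interval -1.80 to -1.02), a level 0.377 times that of the control, with an adjusted p of 0.0313 by edgeR's quasi-likelihood test with Benjamini-Hochberg adjustment over 13973 genes. Acly was the only member called, at an adjusted p under 0.05, in either knockout comparison; in the Acly comparison 0.136% of tested genes were called, 0.0573% as higher and 0.0787% as lower, and Acly ranked 9 by p.

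The direction of this fall was the same in each of 15 alternatives, with log2 fold changes from -1.54 to -1.21 and adjusted p from 2.84e-13 to 0.233, but 7 of them ended the call: scaling by total counts (adjusted p = 0.0564), adjustment for Y-linked counts (0.0626), and leaving out knockout replicate 1 (0.0603), knockout replicate 3 (0.0736) or control replicate 1 (0.109), 2 (0.145) or 3 (0.233). Without knockout replicate 2, the sample apart in fibroblast markers, Acly stood at 43.1% of control (log2 fold change -1.21, adjusted p = 0.000408). An exact two-sided permutation test of log2 CPM gave p = 0.1, the smallest that 3 samples against 3 allow. Whether the lower fibroblast markers of the knockout samples bear on the Acly values was not tested. The counts are summed over the whole gene, so RNA left from the deleted allele and RNA of cells that kept Acly cannot be told apart. The remaining share thus cannot be read as the share of cells that kept Acly.

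The promoter of Acly and that of Acss2 are shown because these genes are the entry points of citrate and of acetate into cytosolic acetyl-CoA, and the RNA of one falls when its own gene is deleted. Both are the 250 bases before the annotated start, from RefSeq on build GRCm38.p6: chr11:100528001-100528250 on the minus strand for Acly and chr2:155517793-155518042 on the plus strand for Acss2, each written 5′ to 3′ on the gene's strand. Capitals mark GC boxes, the letters GGGCGG on either strand, which Sp1-type factors are known to bind.
Acly: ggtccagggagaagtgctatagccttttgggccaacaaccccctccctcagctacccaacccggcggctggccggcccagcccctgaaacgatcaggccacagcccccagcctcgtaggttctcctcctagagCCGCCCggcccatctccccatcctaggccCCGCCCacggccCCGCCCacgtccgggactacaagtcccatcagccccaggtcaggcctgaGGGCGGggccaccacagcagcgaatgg
Acss2: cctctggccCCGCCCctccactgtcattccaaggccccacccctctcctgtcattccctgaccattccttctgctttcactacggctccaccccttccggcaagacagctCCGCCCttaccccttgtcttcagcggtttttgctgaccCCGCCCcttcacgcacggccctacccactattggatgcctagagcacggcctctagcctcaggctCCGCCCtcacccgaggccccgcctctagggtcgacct

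Each of these windows held 4 GC boxes, as did that of Slc25a1, whereas Slc33a1 had none. At least 1 GC box occurred in 32.7% and at least 4 in 4.09% of the 32851 promoter windows of that length in the RefSeq table. Windows were found for 8 of the 10 genes, 9 in all because Slc13a5 has 2 of them. The sterol regulatory element TCACNCCAC was in none of the 9 windows and in 1.05% of all windows; its absence says only that these letters are not in these bases. The E-box CACGTG, which 6.02% of windows hold, occurred in Slc25a1 and Slc33a1. The CCAAT box, held by 33.8% of windows, occurred in Acss2, Slc25a1, Slc33a1 and 1 window of Slc13a5. Both strands were searched, and no matches of different motifs overlapped. These matches are a description of the sequence and say nothing about binding in these cells.

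In the LDH set, Acly was at 228, 241 and 205 CPM in control and 204, 191 and 204 CPM in knockout samples. The lowest control sample was just above the highest knockout sample. The knockout level was 89.0% ± 3.27 of the control mean, the log2 fold change was -0.17 (SE 0.08, 95% interval -0.35 to 0.02) and the adjusted p was 0.294 by the same test over 13321 genes, of which 2.49% were called, 1.43% as higher and 1.07% as lower. None of the 9 members tested was called by edgeR or by 12 of 15 alternatives; at an unadjusted p under 0.05 there were 3, Acss2, Acat2 and Slc33a1, where 19.6% of all tested genes had such a p. With adjustment for Y-linked counts, the direction for Acly turned, to a log2 fold change of 0.02. Y-linked counts were near 0 in all LDH knockout samples and in control replicate 3, and high only in control replicates 1 and 2. That covariate thus largely coincides with genotype in the LDH set, and this fit cannot separate them.

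**Figure D2:**
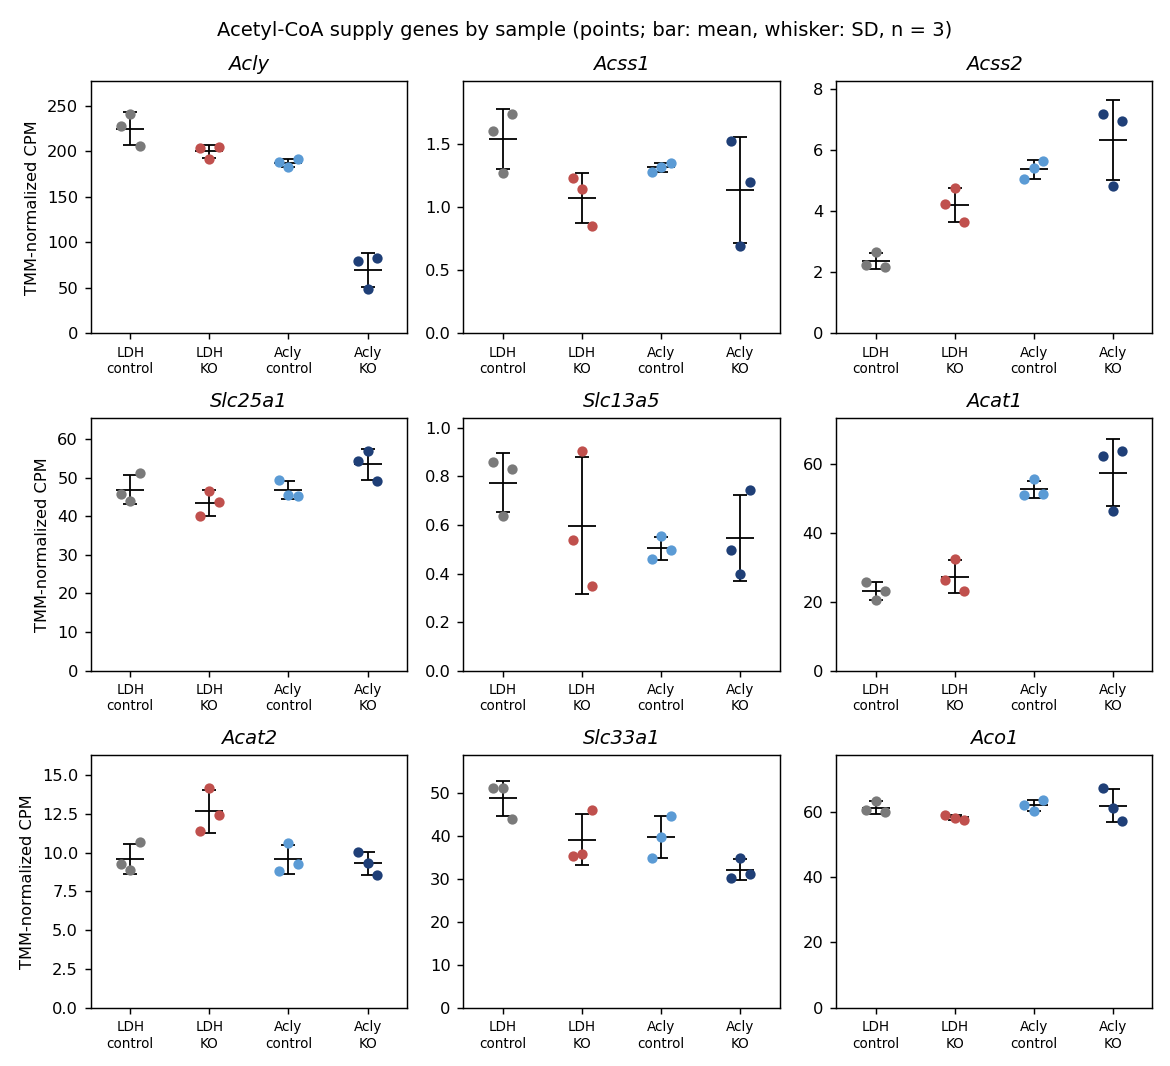
CPM of 9 genes by sample (Acss3 is not drawn), each panel on its own axis from 0, with a point for each sample, a bar at the mean and a whisker for the SD of 3 samples. Acly knockout samples lie at 48.3 to 82.4 CPM for Acly, below the other 9 samples, and Acss2 in the LDH knockout lies at 3.65 to 4.76 CPM against 2.17 to 2.66 in its control.

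Slc25a1 exports citrate from mitochondria in exchange for malate. In the Acly set it was at 49.5, 45.5 and 45.4 CPM in control and 54.2, 56.9 and 49.2 CPM in knockout samples. The ranges overlapped by 1 control sample that was above the lowest knockout sample, and the log2 fold change was 0.21 (SE 0.09, 95% interval -0.00 to 0.42, adjusted p = 0.324, edgeR). In the LDH set, controls had 45.9, 43.9 and 51.2 CPM and knockouts 40.0, 46.6 and 43.8 CPM, with a log2 fold change of -0.11 (SE 0.09, adjusted p = 0.544). The ratio of Acly to Slc25a1 in TPM was 1.78 ± 0.275 in the LDH control, 1.70 ± 0.184 in the LDH knockout, 1.48 ± 0.0770 in the Acly control and 0.490 ± 0.158 in the Acly knockout (SD, n = 3 each). The transcript of the carrier thus outnumbered that of the enzyme in all 3 Acly knockout samples and in none of the other 9.

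Slc13a5 takes up citrate through the plasma membrane, chiefly in liver and brain. It was scarce, from 0.349 to 0.905 CPM over all 12 samples, and the values of the groups overlapped in both sets. Its log2 fold change was -0.37 (SE 0.40) in the LDH and 0.13 (SE 0.38) in the Acly comparison, so intervals at this level span from -1.26 to 0.52 and from -0.73 to 0.98.

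Aco1, the cytosolic aconitase, turns citrate into isocitrate and, without its iron-sulfur cluster, acts as iron regulatory protein. It was the steadiest member, at 57.2 to 67.3 CPM over all 12 samples. LDH controls had 60.7, 63.5 and 59.8 CPM and LDH knockouts 59.1, 58.3 and 57.6 CPM. These did not overlap, yet the log2 fold change was only -0.07 (SE 0.07, 95% interval -0.23 to 0.08, adjusted p = 0.598, edgeR). In the Acly set the log2 fold change was 0.01 (SE 0.09, interval -0.19 to 0.21), and its sign turned with scaling by total counts (-0.03).

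Acss2, the nuclear and cytosolic enzyme that makes acetyl-CoA from acetate, had the largest difference of the 9 tested members in the LDH comparison. The LDH controls had 2.24, 2.66 and 2.17 CPM, and the LDH knockouts had 4.23, 4.76 and 3.65 CPM. All 3 knockout samples were above all 3 controls, at 179% ± 23.6 of the control mean. The log2 fold change was 0.84 (SE 0.20), a fold of 1.79 with a 95% interval of 1.32 to 2.42, and edgeR's adjusted p was 0.0573, just outside the threshold of 0.05. The difference passed in 3 of 15 alternatives, namely DESeq2 (adjusted p = 0.0250), a fit over all 12 samples (0.0361) and leaving out LDH knockout replicate 3 (0.0297). Over all 15, log2 fold changes ran from 0.41 to 0.98 and adjusted p from 0.0250 to 0.338. The highest adjusted p came with adjustment for Y-linked counts, which largely coincide with genotype in this set. Chondrocyte and fat cell marker sums were higher and osteoblast and fibroblast marker sums lower in these same knockout samples, as given above. The part of these shifts in the Acss2 values was not tested.

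In the Acly set, Acss2 was at 5.04, 5.42 and 5.64 CPM in control and 7.18, 4.83 and 6.96 CPM in knockout samples. Knockout replicates 1 and 3 were above all controls and replicate 2 was below all controls, so the groups overlapped. The log2 fold change was 0.25 (SE 0.18, 95% interval -0.17 to 0.66, adjusted p = 0.497, edgeR), and without knockout replicate 2 it was 0.40 (adjusted p = 0.262). The interval reaches a fold of 1.58, so a rise of that size could not be told from none with these samples.

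Relative to Acly, Acss2 was higher in the Acly knockout in every sample. Its TPM came to 1.72% ± 0.103 of that of Acly in the LDH control, 3.39% ± 0.564 in the LDH knockout, 4.56% ± 0.297 in the Acly control and 15.1% ± 1.53 in the Acly knockout (SD, n = 3 each). The Acly knockout samples had 14.7%, 16.8% and 13.8%, all above the Acly controls at 4.23% to 4.81%. In the Acly set this ratio carries the fall of Acly itself, which was called, whereas the difference in Acss2 did not pass. In the LDH set the samples had 3.27%, 4.01% and 2.90% against 1.61%, 1.80% and 1.76%, with both transcripts contributing and neither called.

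**Figure D3:**
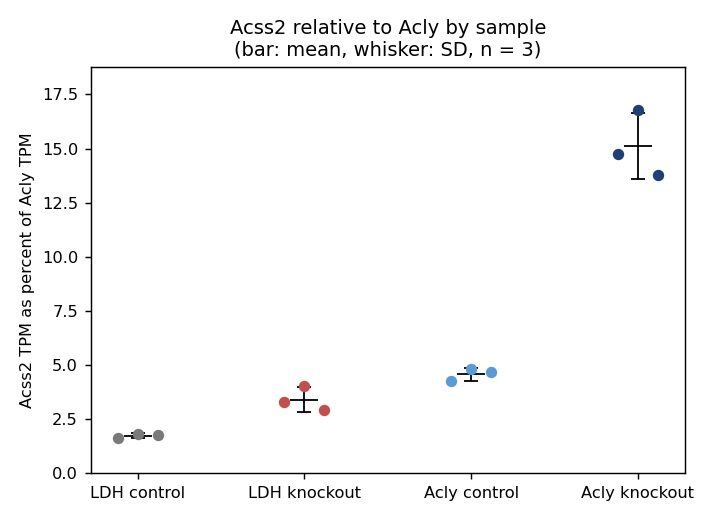
Acss2 TPM as a percent of Acly TPM in each sample, by group, with a bar at the mean of 3 samples. Means run from 1.72% in the LDH control to 15.1% in the Acly knockout, and the groups of each set do not overlap.

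Acss1, the mitochondrial synthetase that activates acetate, was near 1 CPM. LDH controls had 1.6, 1.27 and 1.74 CPM and knockouts 1.23, 1.14 and 0.853 CPM, without overlap, at a log2 fold change of -0.51 (SE 0.28, 95% interval -1.13 to 0.11, adjusted p = 0.341, edgeR). Acly controls had 1.28, 1.32 and 1.35 CPM and knockouts 1.52, 0.691 and 1.20 CPM, with overlap and a log2 fold change of -0.20 (SE 0.32, adjusted p = 0.768). Without knockout replicate 2 that value was 0.05. Acss3, a further mitochondrial synthetase that prefers propionate, was at 0 counts in all LDH controls and at 1, 2 and 0 in LDH knockouts, 3, 6 and 0 in Acly controls and 2, 0 and 5 in Acly knockouts. It did not pass the filter on low counts in any comparison, and no fold is given; a count of 0 allows up to 0.113 CPM, from counting error alone.

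Acat1 is the mitochondrial acetoacetyl-CoA thiolase of ketone body and isoleucine breakdown. It was at 25.7, 20.5 and 23.2 CPM in LDH controls and 26.3, 32.4 and 23.2 CPM in LDH knockouts, with a log2 fold change of 0.24 (SE 0.14, adjusted p = 0.375, edgeR). In the Acly set, controls had 51.1, 55.6 and 51.4 CPM and knockouts 62.3, 46.4 and 63.8 CPM. As for Acss2, knockout replicates 1 and 3 were above all controls and replicate 2 below them, and the log2 fold change was 0.14 (SE 0.12, adjusted p = 0.560).

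Acat2 is the cytosolic thiolase that joins acetyl-CoA units at the entry of the sterol pathway. LDH controls had 9.25, 8.87 and 10.7 CPM and LDH knockouts 11.4, 14.2 and 12.4 CPM. The groups did not overlap, the knockout was at 132% ± 14.6 of control, and the log2 fold change was 0.40 (SE 0.14, 95% interval 0.09 to 0.71), with an adjusted p of 0.154 by edgeR. With adjustment for Y-linked counts, which largely coincide with genotype in the LDH set, the log2 fold change was 0.14 and the adjusted p 0.825. In the Acly set, controls had 8.81, 10.6 and 9.30 CPM and knockouts 10.0, 9.31 and 8.59 CPM, an overlap with a log2 fold change of -0.03 (SE 0.14). Acat3, a close copy of Acat2 in the mouse, averaged 0.0249, 0.233, 0.471 and 0.167 CPM in LDH control, LDH knockout, Acly control and Acly knockout; reads could be split between the copies, so the values of Acat2 are uncertain to that extent.

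Slc33a1 carries acetyl-CoA from the cytosol into the endoplasmic reticulum, where proteins and gangliosides are acetylated. LDH controls had 51.2, 51.2 and 44.1 CPM and LDH knockouts 35.5, 36 and 46.0 CPM. Knockout replicate 3 was above the lowest control, so the groups overlapped, at 80.2% ± 12.2 of control and a log2 fold change of -0.32 (SE 0.11, 95% interval -0.57 to -0.07, adjusted p = 0.163, edgeR). Without that replicate the values were -0.45 and an adjusted p of 0.0277, the only 1 of 15 alternatives that passed. With adjustment for Y-linked counts, which largely coincide with genotype in the LDH set, they were -0.08 and 0.879. Acly controls had 35, 39.9 and 44.8 CPM and Acly knockouts 30.3, 35 and 31.3 CPM. The highest knockout value was just under the lowest control value, at 80.7% ± 6.19 of control and a log2 fold change of -0.29 (SE 0.12, interval -0.56 to -0.02, adjusted p = 0.298).

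Counted over the 9 tested members in the LDH comparison, 2 lay above control without overlap (Acss2 and Acat2) and 3 below (Acly, Acss1 and Aco1), against 12.2% of all tested genes above and 12.1% below. In the Acly comparison, none lay above and 2 below (Acly and Slc33a1), against 9.73% and 12.4% of tested genes. The median log2 fold change of the members was -0.11 in the LDH comparison, where that of all genes was 0.01, and 0.01 in the Acly comparison, where that of all genes was -0.00.

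**Figure D4:**
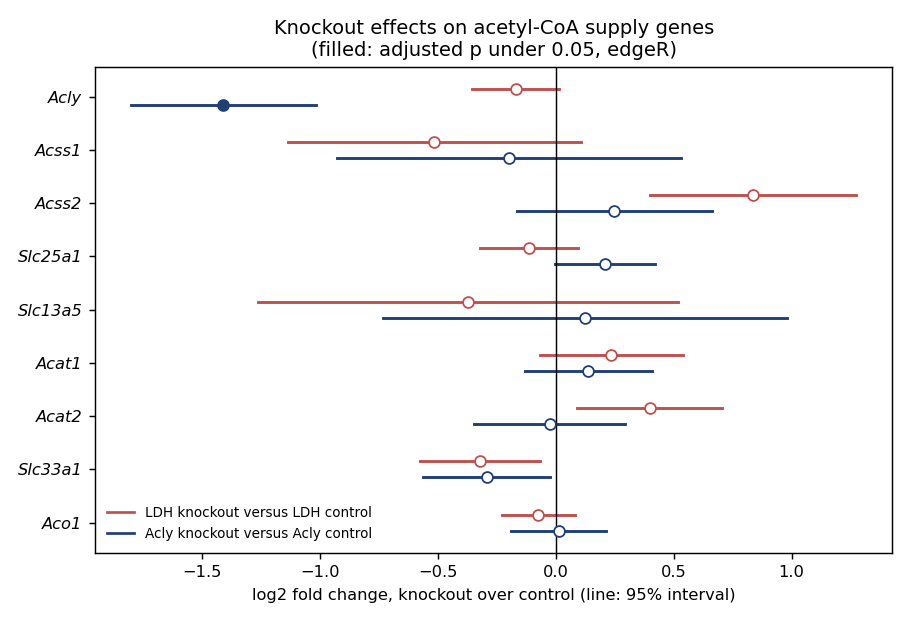
Log2 fold changes of the 9 tested genes, knockout over its own control, with 95% intervals from edgeR, for the LDH and the Acly comparison. Acly in the Acly comparison lies at -1.41 and is the only one called; Acss2 in the LDH comparison lies at 0.84 with an interval that stays above 0.

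The effects of the knockouts were compared directly in a fit over all 12 samples. Acly was the only member called: LDH minus Acly knockout came to 1.25 on the log2 scale (SE 0.21, 95% interval 0.80 to 1.71, adjusted p = 0.0411, edgeR), and 0.161% of 14251 genes were called. Its own deletion in the Acly set makes such a difference part of the design. The call ended in 11 of 19 alternatives, with differences from 1.05 to 1.39 and adjusted p from 2.40e-05 to 0.135: both fits on log2 FPKM (adjusted p of 0.0537 and 0.0546), the replicate block (0.126), and leaving out LDH knockout replicate 1 (0.0981) or 2 (0.0879), LDH control replicate 1 (0.0843), 2 (0.0748) or 3 (0.0927), or Acly control replicate 1 (0.0761), 2 (0.0919) or 3 (0.135). For Acss2 the difference was 0.60 (SE 0.27, interval 0.03 to 1.17, adjusted p = 0.362). It was 0.44 for Acat2 (interval 0.03 to 0.85, adjusted p = 0.357) and -0.30 for Slc25a1 (interval -0.58 to -0.03, adjusted p = 0.338). These intervals are not adjusted for the number of genes, and 1855 of the 14251 had an unadjusted p under 0.05. For Slc33a1 the difference was -0.01 (interval -0.38 to 0.36, adjusted p = 0.986), and its sign turned in 8 of 19 alternatives. The sets also differ in age, so a difference between genes deleted cannot be told apart from one between ages or litters.

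Between the controls, Acss2 and Acat1 were higher in the Acly set at E18.5 than in the LDH set at postnatal day 5. Acss2 had 5.37 ± 0.305 against 2.36 ± 0.263 CPM (SD, n = 3 each), a log2 fold change of 1.19 (SE 0.19, adjusted p = 0.000183, edgeR). Acat1 had 52.7 ± 2.48 against 23.2 ± 2.59 CPM, also a log2 fold change of 1.19 (SE 0.14, adjusted p = 1.62e-05). These were 2 of the 9 members, where 55.0% of all tested genes were called, 4184 of 7844 as higher; scaled by total counts, 5492 of 7583 were higher and the median of all genes was at 0.19 in place of 0.02. Both members kept direction and call in all 12 alternatives. Slc33a1 missed the threshold (log2 fold change -0.29, adjusted p = 0.0536) and passed in 4 of 12 alternatives. Acly was not called between controls (-0.26, SE 0.15, adjusted p = 0.148). Age, litter, genetic background and cell content of the sets cannot be told apart here. Fibroblast and perichondrium markers summed to 2666 to 3119 CPM in these Acly controls against 242 to 418 in the LDH controls. Endothelium markers summed to 75.0 to 89.8 against 9.28 to 14.6, and skeletal muscle markers to 195 to 264 against 12.2 to 25.1. Chondrocyte markers summed lower, to 8592 to 9378 against 10876 to 12619, and macrophage sums overlapped. The part of other cells in the Acss2 and Acat1 values was not tested.

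Genes around the members in the pathway were taken from 8 lists with 92 genes. In the LDH comparison 90 were tested, and 1 was called higher and 1 lower, where 2.49% of all tested genes were called. Without overlap, 10 lay above and 10 below control (11.1% each, against 12.2% and 12.1% of all tested genes), 18 had an unadjusted p under 0.05, and the median log2 fold change was -0.01. Scd1, a fatty acid desaturase, rose from 91.5 ± 10.6 to 184 ± 69.1 CPM (log2 fold change 1.01, SE 0.22, adjusted p = 0.0428, edgeR). Scd1 is also abundant in fat cells, whose markers were higher in the same samples; their part in the result was not tested. Cpt1a, which commits fatty acids to mitochondrial oxidation, fell from 32.7 ± 2.16 to 22.4 ± 1.28 CPM (log2 fold change -0.55, SE 0.09, adjusted p = 0.0167). The part of the marker shifts in the Cpt1a values was not tested. Calls in these lists were recounted only without the filter on low counts, again with 1 higher and 1 lower. Over all genes, the 332 calls fell to 3 with the Y-linked covariate, which largely coincides with genotype in the LDH set.

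The remaining 6 lists held no call in the LDH comparison. Among the genes with the lowest p in their lists were Naa10, the catalytic subunit of an N-terminal acetyltransferase (log2 fold change 0.45, adjusted p = 0.0676), Nr1h3, the sterol-sensing receptor LXR alpha (0.78, adjusted p = 0.0946), and Pdk4, a kinase that shuts off pyruvate dehydrogenase (-0.99, adjusted p = 0.110). Mdh2, the mitochondrial malate dehydrogenase, was at 0.19, Coasy, of coenzyme A synthesis, at -0.17, and Acot7, an acyl-CoA thioesterase, at 0.27, with adjusted p from 0.261 to 0.354. Lists of lipid synthesis, acetyltransferases and regulators of Acly had medians of -0.06, -0.04 and 0.00 there.

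In the Acly comparison 91 of the 92 were tested and none was called by edgeR; 12 had an unadjusted p under 0.05 (13.2%, against 15.8% of all tested genes), and 1 was called without the filter on low counts. Here 14 lay above and 9 below control without overlap (15.4% and 9.89%, against 9.73% and 12.4% of all tested genes), and the median was 0.04. Slc16a3, a lactate exporter, was closest to the threshold, at 26.9 ± 4.19 against 58.0 ± 12.1 CPM (log2 fold change -1.10, SE 0.16, adjusted p = 0.0592). Pdk1, a further kinase of pyruvate dehydrogenase, was at -0.66 (adjusted p = 0.190) and Ubr4, a ubiquitin ligase reported to act on the Acly protein, at -0.32 (adjusted p = 0.201).

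Mdh2 (0.30) and Naa10 (0.30) were again the lowest by p in their lists, as were Pank3 (-0.39), a pantothenate kinase of coenzyme A synthesis, Aacs (0.22), which activates acetoacetate in the cytosol, and Scd2 (-0.34), a further desaturase; their adjusted p ran from 0.252 to 0.399. The lists of lipid synthesis, acetyltransferases and regulators of Acly had medians of 0.05, -0.03 and -0.02 in the Acly comparison.

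**Figure D5:**
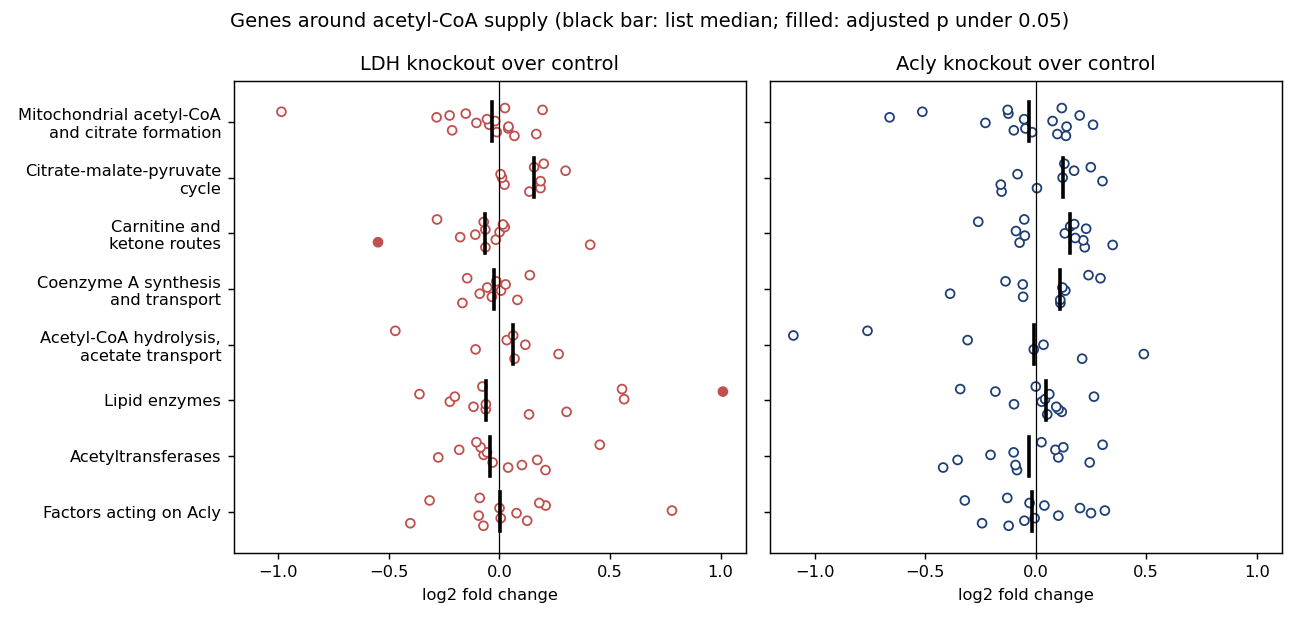
Log2 fold changes, knockout over control, of the tested genes in 8 lists of pathway genes, a point for each gene, for both comparisons, with a bar at each list's median and filled points for an adjusted p under 0.05. List medians lie between -0.06 and 0.16, and the 2 filled points are Scd1 and Cpt1a in the LDH comparison.

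Genes that neighbour Acly on the chromosome, 5 on each side in the GRCm38.p6 gene list, had values for 8 of 10. None of the 7 tested was called in either comparison, where 2.49% (LDH) and 0.136% (Acly) of all tested genes were called. In the LDH set P3h4, Nt5c3b and Cnp lay above control without overlap and Dnajc7 below, against 12.2% and 12.1% of all tested genes. Nt5c3b also lay above without overlap in the Acly set, against 9.73%. In the Acly knockout the log2 fold changes of the 7 ran from -0.19 for Klhl11 to 0.67 for Klhl10, the latter at 0.667 against 0.422 CPM. The adjacent Klhl11 was at 9.26 against 10.7 CPM (adjusted p = 0.567, edgeR), whereas Acly fell by 1.41 on the log2 scale.

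The genes whose levels ran most like those of Acly over the 12 samples were Parp4 (Pearson r = 0.96), Rapgef2 (0.94), Kdm5a (0.94), Fbxo38 (0.94) and Rint1 (0.93), out of the 10574 genes that averaged 5 CPM or more. Those most opposite were Rap1gap (-0.94), Crtap (-0.92), Itpk1 (-0.92), Ctdsp1 (-0.91) and Fam3a (-0.91). These are correlations of log2 CPM given as a description; the samples share the 4 groups, and the low values of the Acly knockout carry much of the range. Parp4 averaged 23.0 CPM in the Acly knockout against 35.4 in its control, and Rap1gap 23.5 against 14.2. Neither was called, with adjusted p of 0.114 and 0.126 by edgeR. Of the members with that minimum level, Slc25a1 had r = -0.77, Acat1 -0.63, Aco1 -0.17, Acat2 0.29 and Slc33a1 0.69 with Acly.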

How the data were processed

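RNA of 12 samples was sequenced at BGI after oligo(dT) selection, per the labels' protocols. HISAT2 2.0.4 and build mm9 are named in the submitters' processing notes; the counting program, annotation and use of strand are not given in the sources used here. The authors deposited expected counts, of which 7.32% to 8.16% per sample are not whole, with FPKM and TPM values. The deposited FPKM values were used for an alternative test and the deposited TPM values for levels between genes. Counts were rounded and tested with edgeR 4.0.16 (R 4.3.3) by the quasi-likelihood test after filtering low counts and TMM scaling, two-sided, with Benjamini-Hochberg adjustment over all tested genes and a threshold of 0.05 on the adjusted p. Each knockout was fitted with its own control; the difference of effects and the controls used all 12 samples. Standard errors came from the log2 fold change and F, and 95% intervals from the t distribution. CPM values were scaled over the 12 samples together. Alternatives used DESeq2 1.42.0, limma 3.58.1, other scalings, a replicate block, a covariate of summed Y-linked CPM and left-out samples. The script was tested on simulated data. Of the gene identifiers, 17814 were found in the RefSeq list of GRCm38.p6, which was used for names, neighbours and promoters only; 26 symbols turned into dates were restored and 2 duplicated symbols replaced. Replicates of every group differed beyond sampling noise. Besides the members, the text names, in each pathway list, the genes past the threshold (at most 3) or else the gene with the lowest p, the 5 genes most and least like Acly, and its 10 neighbours; members and lists were chosen with earlier results of these data known.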

Additional observations from a re-analysis of the deposited data

Results flagged for a closer look

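Acly responded differently in the LDH and the Acly knockout: the difference of the effects, LDH minus Acly, was 1.25 on the log2 scale (adjusted p = 0.0411, edgeR's quasi-likelihood test), and it was selected because the test of the difference itself passed. Acly was lower than control in 3 of 3 Acly knockout samples, the gene's own deletion being the treatment there.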

How the results depend on the processing

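Depth limits Acss3, Slc13a5 and Acss1, which lay near or under 1 CPM. Replicate numbers did not pair the samples: same-numbered deviations correlated at -0.13 to 0.05 in the LDH and -0.19 to 0.02 in the Acly set. Genes called in the LDH comparison (332) numbered 862 with DESeq2, 3 with the Y-linked covariate, which largely coincides with genotype there, and 95 to 1068 with 1 sample left out. Those in the Acly comparison (19) numbered 253 with DESeq2, 11 with total counts, 32 without the filter, 8 with the replicate block, 6 with the Y-linked covariate, 31 in a fit of all 12 samples and 0 to 132 with 1 sample left out: 132 without knockout replicate 2, and 0 by edgeR without control replicate 1 or 3, with 2323 and 1008 at an unadjusted p under 0.05. Those of the difference of effects (23) numbered 217 with DESeq2, 5 with the replicate block and 5 to 143 with 1 sample left out. Of the pathway genes, 1 was called in the Acly comparison without the filter. The cause of these shifts was not tested.

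Directions turned only for differences that had not passed. In the LDH comparison, Acly was at 0.019 with the Y-linked covariate. In the Acly comparison, Aco1 was at -0.035 with total counts, -0.038 and -0.040 on log2 FPKM with pseudocounts of 1 and 0.1, and -0.00220 in a fit of all 12 samples, and Slc13a5 was at -0.029 and -0.13 on log2 FPKM. With 1 sample left out, Aco1 ran from -0.041 to 0.071, Acss1 from -0.45 to 0.052, Slc13a5 from -0.15 to 0.29 and Acat2 from -0.083 to 0.058. In the difference of effects, Slc33a1 was at 0.012 with total counts and 0.090 and 0.099 on log2 FPKM, and with 1 sample left out ran from -0.14 to 0.076, while Acat1 ran from -0.031 to 0.22. Between controls, Slc25a1 was at 0.17 with total counts and 0.17 and 0.17 on log2 FPKM, and Acat2 at 0.17, 0.14 and 0.17; with 1 sample left out, Slc25a1 ran from -0.091 to 0.059, Acat2 from -0.096 to 0.079 and Aco1 from -0.0030 to 0.037.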
